A study of Mus musculus with 28 samples.

Results

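The metallothioneins Mt1 and Mt2, the ferritin subunits Fth1 and Ftl1, the iron importers Tfrc and Slc11a2, the iron exporter Slc40a1 and the plasma ferroxidase Cp were followed in mouse kidney cells after ischemic injury. These 8 genes were taken by their symbols out of 53392 genes in the quantification files, and their rows were read from the authors' 12 comparison tables. All mice were FVB males. In each of the 2 cell types there were 5 groups. Sham mice had no injury and untreated mice had acute ischemic kidney injury alone. The other 3 groups received scrambled miRNA, a miR-486-5p mimic or exosomes on top of the same injury, which the scrambled-miRNA controls thus also carried. Endothelial cells came from digested kidneys by means of microbeads against CD31, and proximal tubular cells were microdissected. There were 3 libraries in a group but 2 in each mimic group, although the labels speak of 3 mice per group. Age, the time from injury to collection and the source of the exosomes are not given in the sources used here. Per-library counts were analysed for the scrambled-miRNA, exosome and mimic groups (16 libraries, 8 per cell type). Sham and untreated mice were analysed only through the authors' deposited tables.

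Metallothioneins are small cysteine-rich proteins that bind zinc and copper, and their genes are switched on by the zinc sensor MTF1 at metal response elements, by glucocorticoids and in tissue injury. Cells take up transferrin-bound iron through the transferrin receptor (Tfrc), move it out of endosomes through DMT1 (Slc11a2), store it in ferritin shells of heavy (Fth1) and light (Ftl1) subunits, and release it through ferroportin (Slc40a1) with the help of a ferroxidase such as ceruloplasmin (Cp). When iron is scarce, iron regulatory proteins bind a hairpin, the iron-responsive element, which blocks translation when it lies in a 5' UTR and stabilises the messenger RNA when it lies in the 3' UTR of Tfrc. Messenger RNA levels therefore give only part of the control of the ferritins and ferroportin. The proximal tubule takes up filtered iron, and ferritin heavy chain in that segment is known to protect the kidney in acute injury.

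The hairpins are printed because they separate the members into storage and export genes, with the element at the start of the message, and import genes, with it at the end. They were searched in the GENCODE M21 transcripts (GRCm38) as a bulged C, a 5 base pair stem and the loop CAGTGN, which is in capitals. By that rule 294 of 21877 genes (1.34%) held at least 1 element anywhere in a transcript, and a match is a description, not a tested site. Fth1, Ftl1 and Slc40a1 had 1 each in the 5' UTR, Tfrc had 4 in the 3' UTR, and none was found in Mt1, Mt2 or Cp. A rule added after seeing the data, which allowed 1 bulged base on the 3' side of the stem (881 genes, 4.03%), also found 1 in the 3' UTR of Slc11a2, in transcript Slc11a2-205 but not in Slc11a2-201.
Fth1, 5' UTR, exon 1 of Fth1-201, chr19:9982732-9982760, plus strand: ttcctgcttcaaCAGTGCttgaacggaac
Ftl1, 5' UTR, exon 1 of Ftl1-201, chr7:45459779-45459807, minus strand: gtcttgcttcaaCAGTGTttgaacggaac
Slc40a1, 5' UTR, exon 1 of Slc40a1-201, chr1:45925465-45925493, minus strand: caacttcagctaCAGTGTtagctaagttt
Tfrc, 3' UTR, exon 19 of Tfrc-201, chr16:32631219-32631247, plus strand: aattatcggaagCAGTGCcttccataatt
Tfrc, 3' UTR, exon 19 of Tfrc-201, chr16:32631598-32631626, plus strand: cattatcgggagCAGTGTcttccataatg
Tfrc, 3' UTR, exon 19 of Tfrc-201, chr16:32631663-32631691, plus strand: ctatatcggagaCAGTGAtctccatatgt
Tfrc, 3' UTR, exon 19 of Tfrc-201, chr16:32631710-32631738, plus strand: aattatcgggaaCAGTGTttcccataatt
Slc11a2, 3' UTR, exon 16 of Slc11a2-205, chr15:100395152-100395181, minus strand: agccatcagagcCAGTGTgtttctatggtt

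Mt1 (ENSMUSG00000031765.8, chromosome 8, 94179082 to 94180327) and Mt2 (ENSMUSG00000031762.7, chromosome 8, 94172664 to 94173568) lie side by side on the plus strand, with RefSeq starts 6471 bases apart. Their upstream windows are shown because both genes were called after injury in both cell types, and metal response element cores are in capitals. The cores TGCACNC and TGCGCNC were searched on both strands of the 250 bases before each RefSeq start (GRCm38.p6), where 6 of the 8 members had an entry. Mt1 held 1 core, from 23 to 17 bases before the start, and Mt2 held 3. These counts hold for the RefSeq starts alone, and bases after them were not searched. The gene start printed above lies inside the window for Mt1 and after it for Mt2. The counts therefore do not rank the 2 genes by their metal response elements. Of 32851 promoters of this length, 21.4% held at least 1 core and 1.26% at least 3. Tfrc had 2 overlapping cores at 1 of its starts, and none was found in the windows of Fth1, Ftl1 and Cp, which says only that these letters are not there.
Mt1, chr8:94178839-94179088, plus strand: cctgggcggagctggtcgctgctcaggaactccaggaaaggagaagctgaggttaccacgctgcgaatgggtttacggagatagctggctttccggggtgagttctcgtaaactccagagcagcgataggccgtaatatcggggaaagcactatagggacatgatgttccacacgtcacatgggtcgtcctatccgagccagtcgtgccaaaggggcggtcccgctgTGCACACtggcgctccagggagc
Mt2, chr8:94172368-94172617, plus strand: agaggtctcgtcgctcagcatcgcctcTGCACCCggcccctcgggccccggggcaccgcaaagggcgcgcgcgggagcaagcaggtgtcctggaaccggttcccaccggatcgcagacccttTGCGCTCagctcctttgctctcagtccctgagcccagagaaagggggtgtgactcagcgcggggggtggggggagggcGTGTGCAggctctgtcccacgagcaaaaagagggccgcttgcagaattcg

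Library totals ran from 8273783 to 25326882 reads assigned to genes. Levels are given as TPM, reads scaled by transcript length and library total, or as CPM, reads scaled by library total alone. Over 10 endothelial markers the level was 354 to 690 TPM in endothelial and 25.9 to 60.9 TPM in tubular libraries. The 10 proximal tubule markers summed to 1575 to 16207 TPM in endothelial and 14971 to 46390 TPM in tubular libraries. None of the 10 markers of either list was at 0 in any library. Thick ascending limb markers (5 genes) summed to 3607 to 13842 TPM in the endothelial libraries, above the endothelial markers themselves. In such bulk samples, fewer cells of a type and less RNA per cell cannot be told apart.

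**Figure D1:**
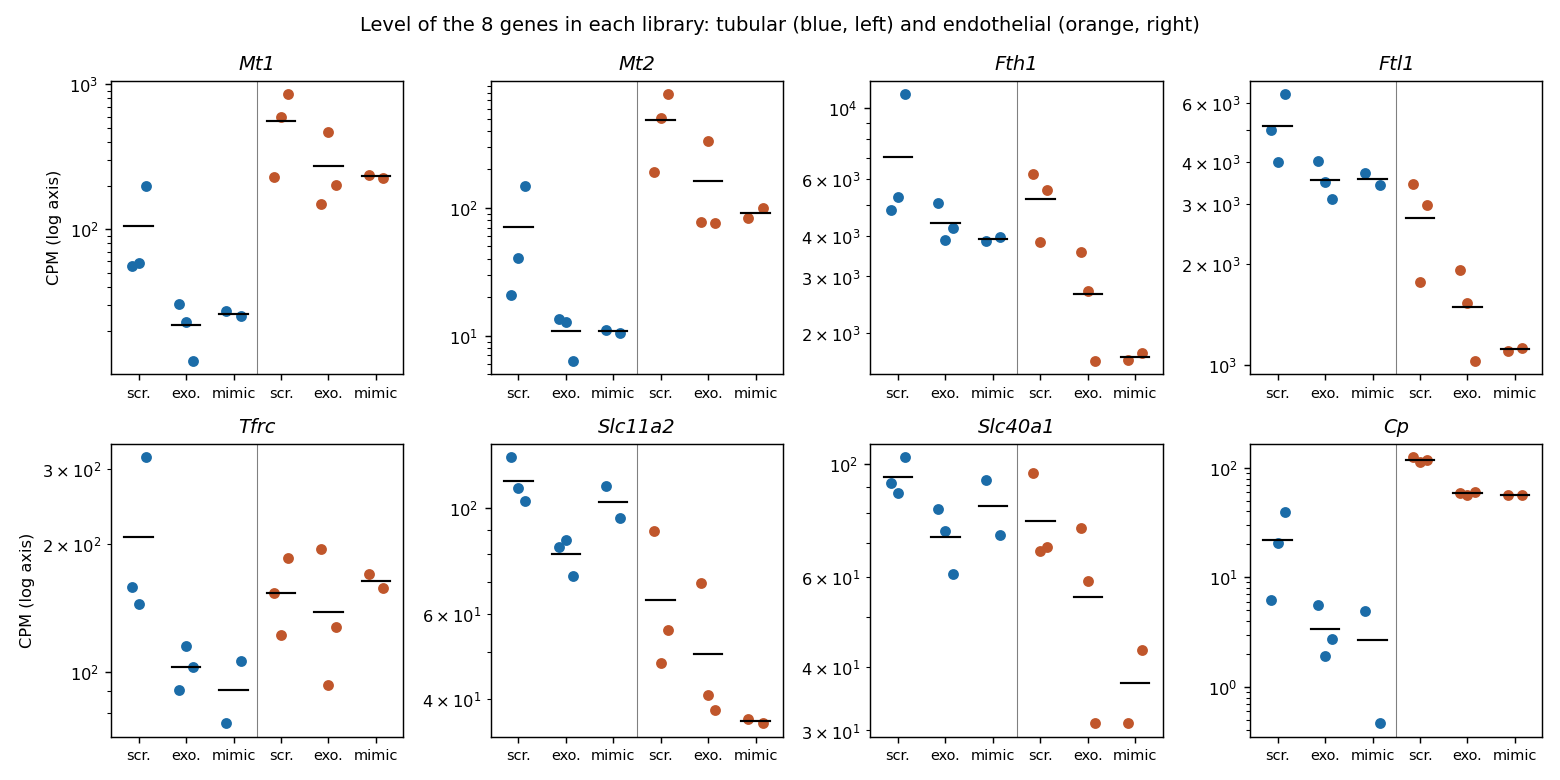
CPM, reads scaled by library total (log axis), of the 8 genes in each of the 16 libraries, tubular in blue on the left and endothelial in orange on the right of each panel, for scrambled miRNA (scr.), exosomes (exo.) and mimic; the black bar is the group mean. Mt1, Mt2 and Cp sit higher in endothelial libraries. In tubular cells the 3 exosome libraries lie below the 3 scrambled-miRNA libraries in CPM for every gene shown but Fth1 and Ftl1. In TPM Fth1 lies below as well, while Tfrc and Slc40a1 overlap. How many of all genes lack overlap was not counted.

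To compare genes with each other, reads were divided by the effective length of the gene's main protein-coding transcript and scaled as in TPM, because TPM summed over transcripts rests for some genes on very short ones. The 263-base transcript Slc40a1-207, with an effective length of 26 bases, held a median of 79.0% of the summed TPM of Slc40a1 in endothelial libraries with 4.05% of its reads. On the main-transcript scale the ferritins were the most abundant members in both cell types. In tubular libraries the medians were 3415 for Fth1, 2441 for Ftl1, 43.4 for Mt1, 22.0 for Mt2, 13.0 for Slc40a1, 11.1 for Tfrc, 10.5 for Slc11a2 and 0.703 for Cp. Slc40a1, Tfrc and Slc11a2 overlapped over the 8 libraries, from 7.20 to 31.2 between them. Mt1 (15.7 to 263) and Mt2 (9.63 to 234) overlapped each other there and reached down into the range of Slc40a1, Tfrc and Slc11a2. In endothelial libraries the order was Fth1 (2144), Ftl1 (946), Mt1 (346), Mt2 (266), Tfrc (16.0), Slc40a1 (8.46), Cp (7.04) and Slc11a2 (4.65). Mt1 and Mt2 overlapped there, as did the last 3, while Ftl1 reached down to 540 and Mt1 up to 1202, so these neighbours overlapped as well. Fth1 and Ftl1 also overlapped in both cell types, as did Tfrc and Slc40a1.

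Endothelial and tubular libraries were then compared over the 3 treatments, which asks how the levels differ between the 2 cell preparations. Mt1, Mt2 and Cp were higher in endothelial libraries, and Fth1, Ftl1, Slc11a2 and Slc40a1 were lower. These 7 of 8 members passed at an adjusted p under 0.05 by edgeR's quasi-likelihood test, where 66.2% of all 17143 genes passed, so the count itself says little about these genes. The sizes differed widely between members. For Cp the log2 fold was 3.45 (SE 0.41, adjusted p = 4.01e-06). Mt2 had 3.07 (SE 0.48, adjusted p = 5.92e-05) and Mt1 2.87 (SE 0.38, adjusted p = 1.30e-05). The 2 metallothioneins thus differed by a similar factor. Ftl1 gave -1.48 (SE 0.18, adjusted p = 4.55e-06) and Fth1 -0.999 (SE 0.21, adjusted p = 0.000772). Slc11a2 gave -1.22 (SE 0.15, adjusted p = 4.72e-06) and Slc40a1 -0.81 (SE 0.15, adjusted p = 0.000319). Tfrc, the transferrin receptor, did not pass (0.07, 95% interval -0.35 to 0.50, adjusted p = 0.769). The median over the members was -0.37 and over all genes 0.06. The part of the other cell types' RNA in these differences was not tested.

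Of 40 measured genes among 49 listed as other metal and iron genes, 13 were higher and 17 lower in endothelial libraries. Over all 17143 genes 66.2% were called, so these counts and those by role below say little about the list. The 8 largest changes among those called follow. They were Hp (4.80, SE 0.74), which binds hemoglobin, Lcn2 (4.44, SE 0.72), whose product carries iron-binding siderophores, and Lrp1 (4.35, SE 0.18), the hemopexin receptor. The others were the heme exporter gene Flvcr1 (3.12, SE 0.22), transferrin (Trf, 3.03, SE 0.31), the hemoglobin scavenger receptor Cd163 (2.85, SE 0.79), Mt3 (2.65, SE 0.48) and the ferrireductase Steap3 (2.63, SE 0.19). Hp, Cd163, Mt3 and Cybrd1 had too few reads for the tubular fit and passed the filter only through the endothelial libraries, so nothing is read from their direction or from their part in the count of 13. Cd163 is also on the macrophage marker list and Lcn2 on the injured tubule list. By role, 5 of 10 uptake genes were higher and 3 lower, 4 of 9 heme genes were higher and 3 lower, and both measured export genes were higher. Cybrd1 is among the higher uptake genes, and Hp and Cd163 are among the higher heme genes. No direction is therefore read for uptake or heme. Of 5 measured regulators 4 were lower and 1 was higher, and 4 of 5 mitochondrial iron genes were lower. None of the 3 measured genes of ferritin storage and release passed. The iron regulatory protein genes Aco1 (-1.45, SE 0.17) and Ireb2 (-0.92, SE 0.16), named after their values were seen, were among the lower regulators. Summed over 10 macrophage markers the level was higher in endothelial libraries, with group means of 87.3 to 166 TPM against 9.40 to 26.1 TPM, and its part was not tested.

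Sham and untreated mice showed the response to injury itself, in the authors' deposited tables. In these tables the log2 folds of several comparisons are shrunken towards 0, and tables that share the untreated or the sham mice share control samples. In tubular cells Mt2 was higher in untreated injury than in sham by a log2 fold of 3.94 (SE 0.78, adjusted p = 3.02e-06) in the authors' deposited table, and Mt1 by 3.45 (SE 0.67, adjusted p = 1.82e-06). Fth1, the ferritin heavy chain, rose by 1.06 there (SE 0.29, adjusted p = 0.00113), whereas Ftl1, the light chain, gave 0.18 (SE 0.24, adjusted p = 0.581). These 3 were the members called, against 20.2% of all genes in that table. In endothelial cells the authors' deposited table gave 4.10 for Mt2 (SE 0.72, adjusted p = 4.72e-07), 3.07 for Mt1 (SE 0.66, adjusted p = 3.24e-05) and 0.84 for Cp (SE 0.32, adjusted p = 0.0257), with 4.41% of all genes called. Fth1 did not pass in that endothelial table (0.74, SE 0.41, adjusted p = 0.0871). Tfrc, Slc11a2, Slc40a1 and Ftl1 did not pass after injury in either cell type, with log2 folds from -0.52 for Slc40a1 to 0.41 for Tfrc, both in the authors' deposited tubular table. Cp in that tubular table gave 0.32 (SE 0.48, adjusted p = 0.412).

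**Figure D2:**
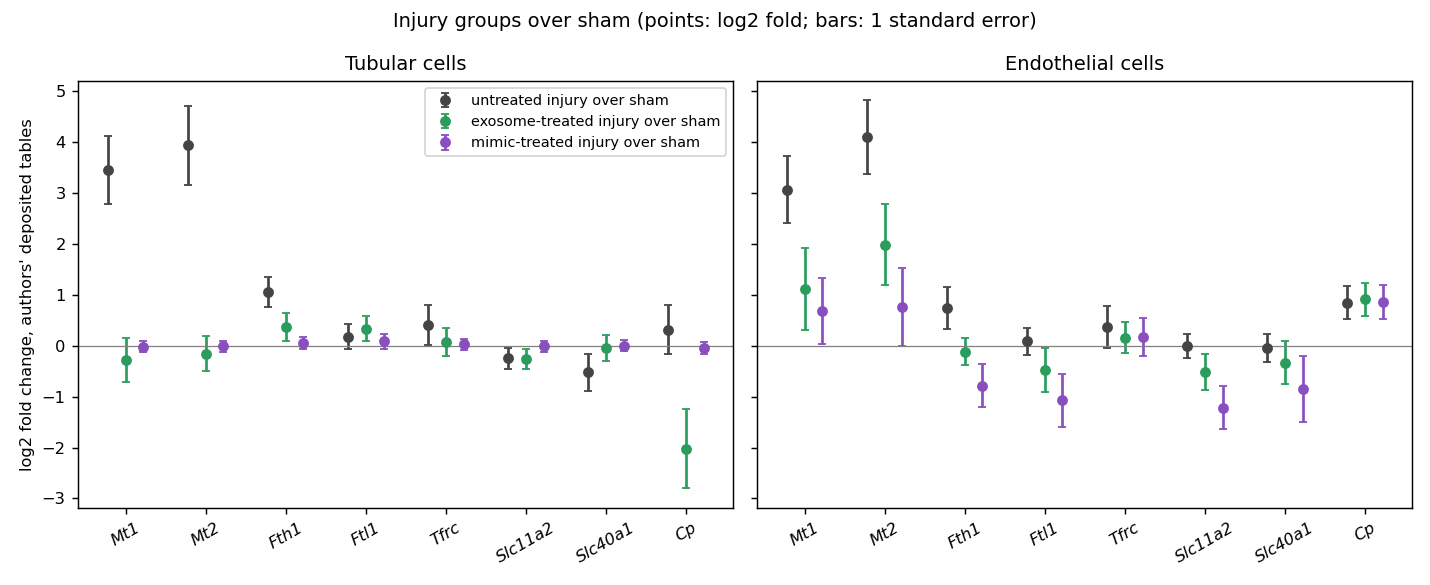
Log2 fold of each of the 8 genes over sham in the authors' deposited tables, for untreated, exosome-treated and mimic-treated injury, with bars of 1 standard error. In untreated injury Mt1 and Mt2 stand between 3.07 and 4.10 in both cell types; in tubular cells their exosome and mimic points lie between -0.29 and -0.01, with the tubular mimic folds strongly shrunken.

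The injury response reached past the members. The authors' deposited table for tubular cells had an adjusted p for 39 other metal and iron genes. Of these, 11 were higher and 5 lower in untreated injury than in sham, where 20.2% of all genes were called. Hp and Cybrd1, named next, had too few reads for the tubular fit of the treated libraries. Little is therefore read from the size of their folds. Hp (9.31), Lcn2 (6.84), Steap4 (3.97), the inducible heme oxygenase Hmox1 (2.45), the ferric reductase Cybrd1 (1.68) and the zinc and iron importer Slc39a14 (1.64) led the rise, while Lrp2 (-1.63) and Cubn (-1.29), the receptors for filtered proteins, were lower in the same authors' deposited table. In the endothelial table Lcn2 (7.20), Hp (3.90), Steap4 (2.67) and Hmox1 (1.82) were higher and none was lower, again from the authors' deposited table. That table had an adjusted p for 42 of these genes and called 4.41% of all genes.

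Treated mice were next set against sham in the authors' deposited tables, which asks how far each treated group stood from uninjured mice. In tubular cells given exosomes, Mt1 (-0.29, SE 0.44, adjusted p = 0.289) and Mt2 (-0.15, SE 0.35, adjusted p = 0.495) did not pass, and Cp was lower than in sham (-2.03, SE 0.78, adjusted p = 0.00688), the only member called there, with 11.2% of all genes called. With the mimic no member passed in the tubular table of the authors' deposited set (1.03% of genes called), where Cp gave -0.04 (SE 0.12, adjusted p = 0.0540) on its shrunken scale. In endothelial cells with exosomes Mt2 (1.99, SE 0.80, adjusted p = 0.0148) and Cp (0.92, SE 0.32, adjusted p = 0.0141) were above sham in the authors' deposited table (6.73% called), and Mt1 gave 1.11 (SE 0.81, adjusted p = 0.0741). With the mimic, Cp was above sham (0.86, SE 0.34, adjusted p = 0.0330), while Ftl1 (-1.07, SE 0.52, adjusted p = 0.0446) and Slc11a2 (-1.22, SE 0.42, adjusted p = 0.00736) were below it in the authors' deposited table (11.6% called). Whether the cell types differ in these folds was not tested. Of the other metal and iron genes, Fbxl5 (0.68) was higher and Lrp2 (-0.85) and Cubn (-0.81) lower than sham with exosomes in the authors' deposited tubular table, and none was called with the mimic. In the endothelial table for exosomes, Lcn2 (4.81) and Trf (1.76) were higher and the folate and heme carrier Slc46a1 (-1.13) lower in the authors' deposited values. With the mimic, the authors' deposited endothelial table called 3 higher and 7 lower than sham, of 42 with an adjusted p (11.6% of all genes called). Cd163 (2.64), Trf (2.40) and Lcn2 (1.96) were higher there, while the 5 lowest were Tfr2 (-3.37), the second transferrin receptor, the receptors Lrp2 (-3.06) and Cubn (-2.99), Slc46a1 (-1.78) and the metal importer Slc39a8 (-1.43), all from the authors' deposited table. Lrp2 is also on the proximal tubule marker list, and the part of tubular RNA in these folds was not tested.

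Untreated mice were also set against each treated group. In the authors' deposited tables for tubular cells Mt1 and Mt2 were higher without treatment than with exosomes (4.60, SE 0.66, adjusted p = 3.52e-11, for Mt1 and 4.89, SE 0.77, adjusted p = 1.44e-09, for Mt2) and than with the mimic (4.13, SE 0.76, adjusted p = 2.53e-07, for Mt1 and 4.60, SE 0.89, adjusted p = 7.32e-07, for Mt2). Cp was the other member called, at 3.02 (SE 0.72) against exosomes and 3.12 (SE 0.84) against the mimic in the authors' deposited tables. These tables called 30.9% and 22.9% of all genes. Mt1 (2.36, SE 0.69, adjusted p = 0.00131) and Mt2 (2.09, SE 0.85, adjusted p = 0.00874) were also higher in untreated than in scrambled-miRNA mice in the authors' deposited table, with 17.8% of all genes called. In endothelial cells no member was called between untreated and scrambled-miRNA mice in the authors' deposited table (0.757% called), with Mt1 at 0.09 (SE 0.23) and Mt2 at 0.04 (SE 0.22). In that cell type the mimic comparison called 5 members, all higher without treatment, against 10.2% of all genes: Mt2 (2.31, SE 0.91), Fth1 (1.92, SE 0.44), Mt1 (1.45, SE 0.87), Ftl1 (1.35, SE 0.54) and Slc11a2 (1.17, SE 0.42), with adjusted p from 8.45e-05 for Fth1 to 0.0417 for Mt1 in the authors' deposited table. The exosome comparison called Fth1 alone (1.05, SE 0.41, adjusted p = 0.0259), with 3.77% of all genes called. Of the other metal and iron genes, 39 had an adjusted p in each of the authors' deposited tubular tables. There 14 were higher and 4 lower without treatment than with exosomes, where 30.9% of all genes were called. Against the mimic 9 were higher and 5 lower (22.9% of all genes), and against scrambled miRNA 7 and 2 (17.8%). The endothelial counts in the authors' deposited tables were 5 and 0 of 41, 7 and 2 of 42, and 0 and 0 of 42 in the same order. Of all genes 3.77%, 10.2% and 0.757% were called there.

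Exosomes were compared with scrambled miRNA in tubular cells from the counts, and Mt1 was lower with exosomes. Mt1 measured 88.1, 84.8 and 262 TPM in the scrambled-miRNA libraries, 41.3, 30.4 and 15.2 TPM with exosomes, and 44.3 and 35.1 TPM after the mimic. The 3 exosome libraries all lay below the 3 control libraries, and control library 3 stood well above the other two. On the log2 scale Mt1 fell by 2.06 with an SE of 0.49 (edgeR adjusted p = 0.0471, n = 3 and 3), from 145 ± 102 to 29.0 ± 13.1 TPM (SD). It was the one member called, and 5.13% of all 14913 genes (765) were called. That count rests on single libraries: 12, 1 and 1 genes were called without exosome library 1, 2 and 3, 85 without scrambled-miRNA library 2, and 48 with a transcript length offset. Mt2 measured 44.0, 82.1 and 278 TPM with scrambled miRNA and 28.0, 26.8 and 13.2 TPM with exosomes, again without overlap. Its log2 fold was -2.49 (SE 0.63, adjusted p = 0.0540), just short of the threshold. How many of all genes lacked overlap was not counted. At an unadjusted p under 0.05 by edgeR there were 4 members and 24.8% of all genes. The Mt1 call was lost in the fits without scrambled-miRNA library 2, without any 1 exosome library, without either mimic library, with only the 2 groups in the fit and with the length offset (adjusted p = 0.0664 to 0.170 over these). Without scrambled-miRNA library 1, Mt1, Mt2 and Cp all passed, among 1005 genes called. Without scrambled-miRNA library 3 the Mt1 fold was -1.21 (adjusted p = 0.0343) and that of Mt2 -1.33 (adjusted p = 0.0494), among 1335 genes called.

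Among the iron genes of the same comparison, all 6 had negative folds and none passed. Ceruloplasmin was the most spread: Cp measured 6.17, 20.5 and 39.8 CPM with scrambled miRNA and 5.56, 1.93 and 2.74 with exosomes. Control library 1 was close to the exosome libraries, and the log2 fold was -2.52 (SE 0.82, adjusted p = 0.100). Tfrc, which brings in transferrin iron, measured 158, 145 and 321 CPM with scrambled miRNA and 90.4, 115 and 102 with exosomes (-0.81, SE 0.31, adjusted p = 0.146). Its groups did not overlap in CPM but did in TPM. The ferritin differences were smaller. Fth1 measured 4064, 3967 and 7442 TPM with scrambled miRNA and 3630, 2707 and 2788 TPM with exosomes (-0.49, SE 0.31, adjusted p = 0.360). Ftl1 measured 4191, 3176 and 4466 against 3217, 2677 and 2213 TPM, which overlap (-0.33, SE 0.20, adjusted p = 0.348). For Slc11a2 the values were 128, 110 and 103 CPM against 83.0, 85.8 and 72.2 (-0.30, SE 0.14, adjusted p = 0.204). For Slc40a1 they were 91.4, 87.7 and 103 against 81.4, 73.7 and 60.9 (-0.19, SE 0.14, adjusted p = 0.422). The exporter and DMT1 thus had small differences with tight replicates. The median over the 8 members was -0.65 and over all genes -0.02.

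Of the other metal and iron genes, 3 of 36 measured fell with exosomes and none rose, by edgeR. Over all 14913 genes 5.13% were called, so the count itself says little about the list. Lcn2 fell by 4.09 in log2 terms (SE 0.97, edgeR adjusted p = 0.0469), from 10.3, 17.8 and 61.2 TPM to 2.21, 0.401 and 1.84 TPM. Hmox1, which frees iron from heme, fell by 1.98 (SE 0.32, adjusted p = 0.0243), from 23.0, 24.6 and 45.2 to 6.25, 8.09 and 5.15 TPM. Bmp6, a ligand of the signal that drives hepcidin in the liver, fell by 0.84 (SE 0.20, adjusted p = 0.0469), from 18.6, 18.6 and 23.4 to 9.61, 8.97 and 9.15 TPM. No library of the exosome group reached the lowest control library for these 3. Without any 1 exosome library none of the 3 was called (adjusted p = 0.0826 to 0.189). Lcn2 also missed the threshold without scrambled-miRNA library 2 (0.0842) or 3 (0.0770), as did Bmp6 without scrambled-miRNA library 2 (0.0856) and without mimic library 1 (0.0530) or 2 (0.0545). Markers of the injured tubule (Havcr1, Lcn2, Krt20, Sox9, Vcam1) moved with the groups: they summed to 17.9, 222 and 455 TPM in the scrambled-miRNA libraries, 6.10, 3.20 and 5.08 TPM with exosomes, and 3.69 and 1.54 TPM after the mimic. Library 3 was the highest for these markers, as it was for Mt1, Mt2, Fth1, Tfrc and Cp. The 10 proximal tubule markers summed to 14971 to 23325 TPM with scrambled miRNA and to 31606 to 43383 TPM with exosomes. The part of either in the member differences was not tested.

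**Figure D3:**
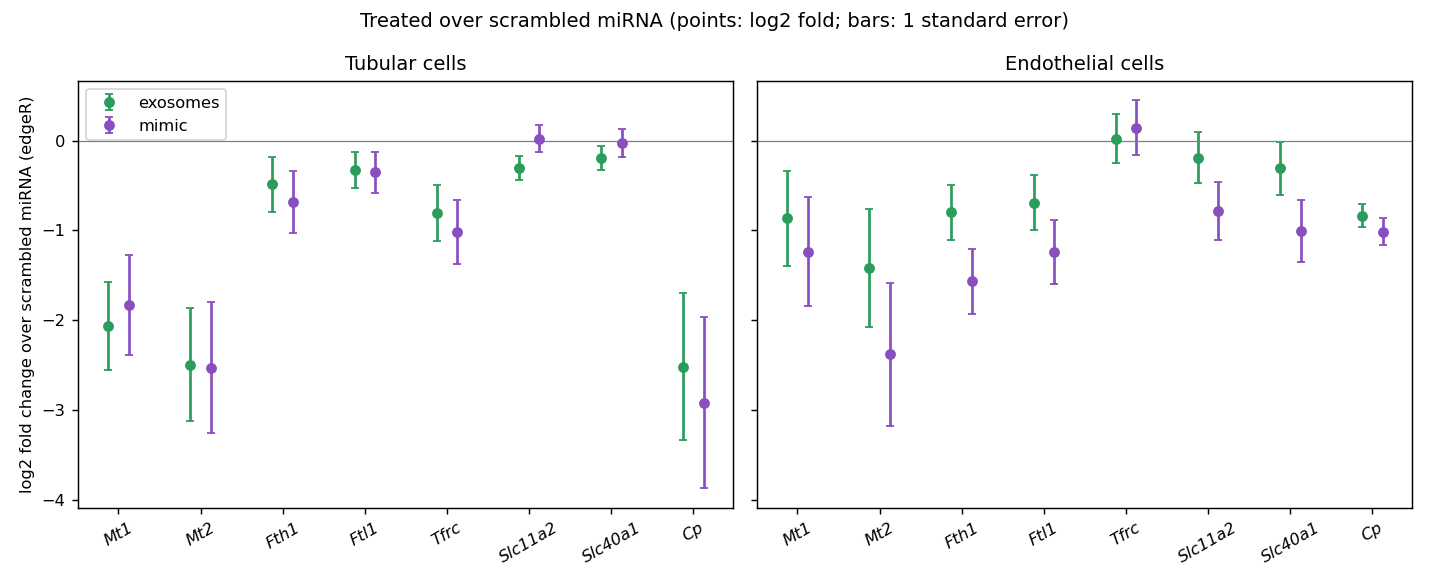
Log2 fold over scrambled miRNA by edgeR for the 8 genes with exosomes (n = 3) and the mimic (n = 2), with bars of 1 standard error. In tubular cells both treatments give folds between -2.92 and -1.83 for Mt1, Mt2 and Cp, and in endothelial cells the mimic points of the ferritins lie at -1.57 and -1.24.

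With the mimic in tubular cells 0 of 8 members passed by edgeR, with 0.0201% of all genes called. At an unadjusted p under 0.05 there were 4 members, and 16.3% of all genes. Mt2 (27.7 and 23.1 TPM, log2 fold -2.53, SE 0.73, adjusted p = 0.166), Mt1 (-1.83, SE 0.56, adjusted p = 0.177), Cp (4.90 and 0.463 CPM, -2.92, SE 0.95, adjusted p = 0.198) and Tfrc (75.5 and 106 CPM, -1.02, SE 0.35, adjusted p = 0.211) were those 4. Fth1 gave -0.68 (SE 0.35, adjusted p = 0.368) and Ftl1 -0.35 (SE 0.23, adjusted p = 0.473). Slc11a2 (0.02, SE 0.15, adjusted p = 0.967) and Slc40a1 (-0.03, SE 0.15, adjusted p = 0.954) were nearest to 0, with 95% intervals of -0.32 to 0.36 and -0.37 to 0.31. DESeq2 called 728 genes and 0 members. Without scrambled-miRNA library 1, Mt2 passed (-2.96, adjusted p = 0.0376), among 494 genes called. None of the 36 other metal and iron genes passed, and 8 had an unadjusted p under 0.05.

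The mimic against exosomes in tubular cells gave 0 calls by edgeR among the members and 0% over all genes. At an unadjusted p under 0.05 there were 0 members and 1848 genes, and DESeq2 called 166 genes and 0 members. Mt1 had a log2 fold of 0.23 with a 95% interval of -0.96 to 1.43, and Mt2 of -0.04 with an interval of -1.57 to 1.503, both of which span 0. Slc11a2 had 0.32 (95% interval -0.0147 to 0.66, adjusted p = 0.408). The folds of the other 5 ran from -0.40 for Cp to 0.17 for Slc40a1.

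In endothelial cells exosomes gave 0 member calls against scrambled miRNA, and 0% of all genes were called by edgeR. At an unadjusted p under 0.05 there were 3 members (Cp, Fth1 and Ftl1) and 1860 genes, while DESeq2 called 349 genes and, of the members, Cp. Cp was the most even of the members: it measured 126, 113 and 118 CPM in the control libraries, 59.3, 56.0 and 60.8 with exosomes, and 56.3 and 56.6 after the mimic. The control libraries did not overlap with either treated group, and the spread within each group was small beside that gap. The exosome and mimic libraries overlapped each other in CPM. Its log2 fold was -0.83 with exosomes (SE 0.13, adjusted p = 0.184 by edgeR and 0.000124 by DESeq2). Mt1 measured 373, 916 and 1201 TPM with scrambled miRNA and 243, 529 and 246 TPM with exosomes, which overlap (-0.86, SE 0.53, adjusted p = 0.598). Mt2 measured 434, 1094 and 1552 TPM against 176, 569 and 130.5 TPM (-1.42, SE 0.66, adjusted p = 0.465). Exosome library 2 was the highest of its group for both metallothioneins. The same library had 137 TPM of Lcn2, against 19.5 and 12.1 TPM in the other 2, and an injured tubule sum of 165 TPM against 29.8 and 17.2 TPM. Without it the Mt1 fold was -1.51 and the Mt2 fold -2.51, and without scrambled-miRNA library 3 they were -0.37 and -0.87. The ferritin subunits gave -0.80 for Fth1 (SE 0.31, adjusted p = 0.376) and -0.69 for Ftl1 (SE 0.31, adjusted p = 0.437). Tfrc (0.02, SE 0.27), Slc11a2 (-0.19, SE 0.28) and Slc40a1 (-0.31, SE 0.30) lay near 0, with adjusted p from 0.769 to 0.990.

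With the mimic the endothelial folds were led by Mt2 and the ferritins, with 0 calls by edgeR in the members and 0% over all genes. At an unadjusted p under 0.05 there were 6 of 8 members and 19.5% of all genes, and DESeq2 called Fth1, Ftl1 and Cp among 1254 genes. Fth1 measured 5081, 2960 and 3913 TPM with scrambled miRNA, 2720, 1568 and 1027 TPM with exosomes, and 1129 and 1232 TPM after the mimic. Both mimic libraries lay below every scrambled-miRNA library, and the log2 fold was -1.57 (SE 0.36, adjusted p = 0.0772 by edgeR and 0.000207 by DESeq2). Ftl1 measured 3013, 1479 and 2269 TPM, then 1554, 995 and 727 TPM, then 848 and 925 TPM in the same order of groups (-1.24, SE 0.36, adjusted p = 0.115 by edgeR and 0.00542 by DESeq2). Cp had -1.02 (SE 0.15, adjusted p = 0.0545 by edgeR and 2.24e-06 by DESeq2). Fitted with the scrambled-miRNA and mimic libraries alone, edgeR called Cp (adjusted p = 0.00888), Fth1 (0.0139), Slc40a1 (0.0259), Mt2 (0.0375) and Ftl1 (0.0390), among 1494 of 15670 genes called. Leaving out exosome library 1 alone called Cp, Fth1 and Ftl1 (adjusted p = 0.0167, 0.0222 and 0.0452), among 1321 of 16150 genes. Without exosome library 2 Cp was called (adjusted p = 0.0337) among 185 genes, and without exosome library 3 Cp (0.0255) and Fth1 (0.0407) among 366 genes.

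None of the remaining members passed with the mimic in endothelial cells by the fit of all 3 groups. Mt2 measured 165 and 213 TPM (-2.38, SE 0.80, adjusted p = 0.158) and Mt1 315 and 316 TPM (-1.23, SE 0.61, adjusted p = 0.302). Slc40a1, the exporter, measured 96.0, 67.4 and 68.6 CPM with scrambled miRNA, 74.8, 58.9 and 31.0 with exosomes, and 31.1 and 43.1 after the mimic (-1.002, SE 0.34, adjusted p = 0.167). Slc11a2 measured 89.7, 47.5 and 55.8, then 69.9, 40.8 and 38.0, then 36.3 and 35.5 CPM (-0.78, SE 0.32, adjusted p = 0.229). Tfrc was the member with a fold above 0 (0.14, SE 0.31, adjusted p = 0.837), at 154, 122 and 185 CPM with scrambled miRNA and 170 and 157 with the mimic. Between mimic and exosomes edgeR called 0 members and 0% of all genes (DESeq2 called 5 genes and 0 members, and 661 genes and 0 members had an unadjusted p under 0.05), with Fth1 at -0.77 (95% interval -1.56 to 0.0291, adjusted p = 0.988). The folds of the other 7 ran from -0.96 for Mt2 to 0.12 for Tfrc. None of 39 measured metal and iron genes passed with exosomes or the mimic, with 12 and 13 at an unadjusted p under 0.05 by edgeR. Of all genes 11.4% and 19.5% were under that p.

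Tubular markers differed between the endothelial groups as well. The proximal tubule markers summed to 9722, 4431 and 5112 TPM in the scrambled-miRNA libraries, 16207, 2609 and 1575 TPM with exosomes, and 2015 and 1671 TPM after the mimic. Fth1, Ftl1, Slc11a2 and Slc40a1, which were lower in endothelial than in tubular libraries, each had their highest exosome value in CPM in the library with 16207 TPM. So did Tfrc (195 CPM, against 93.0 and 128), which did not pass between the cell types. That exosome library had a higher proximal tubule sum than any scrambled-miRNA library. Its Fth1, at 3578 CPM, lay below the scrambled-miRNA libraries (3848 to 6215 CPM). Its Ftl1, Slc11a2 and Slc40a1 lay within the range of those libraries in CPM, and its Tfrc above it. Injured tubule markers summed to 602, 452 and 512 TPM with scrambled miRNA and 11.4 and 29.2 TPM with the mimic. Other marker lists moved with the groups too, given as means with scrambled miRNA, exosomes and the mimic. Thick ascending limb markers were at 5824, 7182 and 13157 TPM, and distal and collecting duct markers at 176, 325 and 559 TPM. Macrophage markers were at 166, 87.3 and 121 TPM, and neutrophil markers at 50.2, 11.4 and 24.4 TPM. Their part in the differences was not tested.

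DMT1 is known to be made from messages with and without an iron-responsive element. Slc11a2-205 carries the hairpin printed above in its 3' UTR, and in Slc11a2-201 none was found. Both together took 79.8 to 91.3% of the gene's reads. In TPM, Slc11a2-205 made up 59.5, 55.3 and 56.2% of the sum of both in endothelial libraries with scrambled miRNA, 50.4, 34.3 and 27.3% with exosomes, and 25.4 and 23.3% after the mimic. All treated libraries lay below all control libraries. In tubular libraries the share was 53.1, 69.7 and 69.7%, then 60.1, 62.2 and 54.6%, then 64.1 and 63.7% in the same order. The scrambled-miRNA libraries spanned both other groups, and both mimic libraries lay above the exosome libraries. The endothelial means were 57.0 ± 2.24, 37.3 ± 11.8 and 24.3 ± 1.48% (SD, n = 3, 3 and 2). By an exact two-sided permutation test, exosomes against scrambled miRNA gave p = 0.1, the smallest that 3 against 3 allows, and the mimic p = 0.2 (adjusted p = 0.3 each over 6 comparisons), so this test cannot reach 0.05 at these group sizes. The proximal tubule sums of endothelial exosome libraries 1, 2 and 3, with shares of 50.4, 34.3 and 27.3%, were 16207, 2609 and 1575 TPM. Those of the endothelial scrambled-miRNA libraries, with shares of 55.3 to 59.5%, were 4431 to 9722 TPM. The part of tubular RNA in the endothelial shares was not tested.

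**Figure D4:**
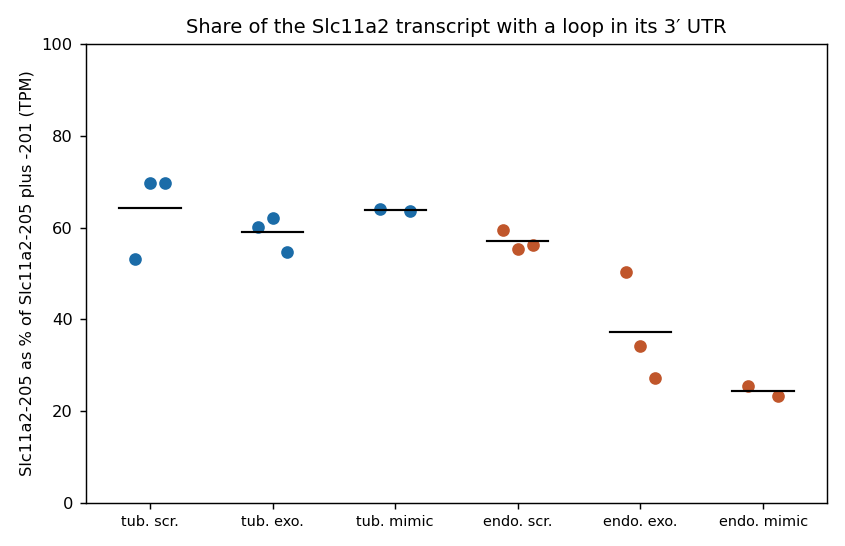
Slc11a2-205, the transcript with a hairpin in its 3' UTR, as a percent of the TPM of Slc11a2-205 and Slc11a2-201, by library and group; the black bar is the group mean. The endothelial shares go from 55.3 to 59.5% with scrambled miRNA to 23.3 and 25.4% with the mimic, while the tubular libraries lie between 53.1 and 69.7%.

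Subunit and isoform ratios were also described. On the main-transcript scale Fth1 over Ftl1 was 2.31 ± 0.230 with scrambled miRNA, 2.04 ± 0.118 with exosomes and 1.81 ± 0.0320 after the mimic in endothelial cells (SD, n = 3, 3 and 2). In tubular cells it was 1.63 ± 0.454, 1.52 ± 0.154 and 1.32 ± 0.101. Heavy chain messages exceeded light chain messages in all 16 libraries on this scale, the lowest ratio being 1.197, but not on that of summed TPM, where the lowest tubular ratio was 0.937. Mt2 over Mt1 was 1.02 ± 0.0523, 0.629 ± 0.203 and 0.478 ± 0.0717 in endothelial cells, and the tubular ratios were 0.721 ± 0.240, 0.599 ± 0.0654 and 0.489 ± 0.00629. In endothelial libraries the 3 scrambled-miRNA values of Mt2 over Mt1, from 0.973 to 1.07, lay above all treated values, the highest of which was 0.850. By summed TPM they were 1.16 to 1.29 and again the highest. Annotated processed copies of the ferritin genes could share reads with them, and these took at most 0.00851% (Fth1, 2 copies) and 0.943% (Ftl1, 3 copies) of the parent gene's reads in any library.

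Whether a treatment acted differently in the 2 cell types was tested by an interaction term over 16 libraries. No member passed for exosomes or for the mimic, with 0% of all genes called by edgeR for each. At an unadjusted p under 0.05 there were 0 and 3 members and 1333 and 2650 genes, and DESeq2 called 31 and 595 genes but 0 members. The 3 mimic members were Slc40a1 (tubular minus endothelial effect 0.97, 95% interval 0.14 to 1.81, adjusted p = 0.254), Tfrc (-1.16, interval -2.24 to -0.07, adjusted p = 0.294) and Slc11a2 (0.80, interval 0.0176 to 1.58, adjusted p = 0.316). For exosomes Cp had -1.65 (interval -3.48 to 0.17, adjusted p = 0.671) and Mt1 -1.18 (interval -2.90 to 0.54, adjusted p = 0.747). The ferritin differences with the mimic were 0.88 each, with adjusted p of 0.457 for Fth1 and 0.356 for Ftl1.

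Genes whose log2 CPM across the 8 libraries of a cell type were most like a member were read off as a description, over genes averaging at least 100 reads. In tubular libraries the 3 genes nearest to Mt1 were Mt2 (Pearson r = 0.974), Gbe1 (0.972) and Map4 (0.972). Those nearest to Fth1 were Myl12a (0.986), Cd151 (0.981) and Rpl4 (0.975). Those nearest to Tfrc were Gm46432 (0.989), Pmm1 (0.971) and Card19 (0.965), and those nearest to Cp were Lgals3 (0.990), Scin (0.981) and Itgb6 (0.979). In endothelial libraries they were Cd24a (0.987), Fgd3 (0.977) and Mboat1 (0.977) for Mt1, and Nln (0.995), Gsta2 (0.995) and Ncl (0.994) for Fth1. For Tfrc they were Dnajb4 (0.961), Gbe1 (0.956) and Mettl5 (0.914), and for Cp Nufip2 (0.975), Prpf31 (0.968) and Usp24 (0.964). Mt2, the chromosomal neighbour of Mt1, was thus its nearest gene in tubular libraries, though by 0.974 against 0.972 for the next. In endothelial libraries Mt2 was not among the 3 nearest, and its correlation with Mt1 there was not read off. No difference between the cell types is read from this. The points share libraries, depth and treatment groups, and these were the highest of 9586 and 10733 values.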

How the data were processed

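The tools Salmon (version 0.13.1) and DESeq2 and the build GRCm38 are named per the submitters' processing notes. The estimated counts and TPM per transcript were made by the authors and deposited for 16 libraries. The authors' deposited tables for sham and untreated mice hold log2 fold changes, p-values and a base mean signal. Members and lists were chosen with earlier results of these data known. Of the pathway list, up to 8 called genes with the largest fold were to be named per comparison, and the 3 most correlated genes for Mt1, Fth1, Tfrc and Cp. Estimated counts were summed per gene, rounded and tested with edgeR 4.0.16 (TMM, quasi-likelihood, filterByExpr with a minimum count of 10 and total of 15, Benjamini-Hochberg at 0.05) in 1 fit per cell type and 1 over both. Tested were 14913 tubular, 16316 endothelial and 17143 joint genes. Intervals use Student's t with edgeR's total degrees of freedom (9.35, 9.07 and 14.1). DESeq2 1.42.0, scaling, filter, length offset, block and left-out libraries were alternatives. The procedure was tested on simulated data. Libraries were treated as 1 animal each, which the labels do not state, so p-values measure the spread between these samples. The cell types share 7 library numbers, each within 1 treatment, so the same mice may have given both preparations. The labels do not state this, and the joint fit took its 16 libraries as independent. Exact tests used scipy 1.17.1.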

Additional observations from a re-analysis of the deposited data

How the results depend on the processing

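The 7 endothelial against tubular calls kept their count in every alternative. For tubular exosomes against scrambled miRNA, the 1 member call became 2 under DESeq2, 4 when the low-count filter was dropped (2014 genes called in all), and 0 with the length offset, the replicate block and only the groups compared, and ranged from 0 to 3 leaving out single libraries. With no low-count filter the member counts were also 4 for the tubular mimic, 3 for endothelial exosomes, 7 for the endothelial mimic, 1 for endothelial mimic against exosomes, and 3 and 2 for the exosome and mimic interactions, among 1354, 896, 2038, 661, 503 and 1716 genes called; edgeR's prior degrees of freedom were then infinite, against 4.07 to 4.35 with the filter, so a gene's own spread no longer counted. For the endothelial mimic, DESeq2 called 3, the block 1 and only the groups compared 5 members, and leaving out single libraries 0 to 3; DESeq2 called 1 for endothelial exosomes. The tubular mimic count ranged from 0 to 1 without single libraries. Libraries with equal replicate numbers within a cell type, or equal library numbers across cell types, had deviations correlated from -0.108 to 0.241. The block changed no other count.
Folds that changed sign were near 0 or spread widely. With the length offset these were Slc11a2 (-0.15) and Slc40a1 (0.0897) for the tubular mimic, Mt2 (0.0294), Ftl1 (0.0493) and Tfrc (0.38) for tubular mimic against exosomes, Tfrc (-0.0674) for endothelial exosomes, Cp (0.0456) for endothelial mimic against exosomes, Tfrc (-0.0825) between cell types and Slc11a2 (0.0214) in the exosome interaction. With the block they were Slc11a2 (-0.035, tubular mimic), Mt2 (0.16) and Ftl1 (0.0277, tubular mimic against exosomes) and Mt1 (0.000209, endothelial mimic against exosomes). With no filter Mt2 (0.00367) and Ftl1 (0.0154) did so for tubular mimic against exosomes, and with only the groups compared Ftl1 (0.00195) there and Tfrc (-0.0151) for endothelial exosomes.
Leaving out single libraries gave sign changes over these ranges: in tubular mimic against exosomes Cp -2.75 to 0.45, Ftl1 -0.08 to 0.0403, Mt1 -0.0263 to 0.47, Mt2 -0.28 to 0.13 and Tfrc -0.54 to 0.13; for the tubular mimic Slc11a2 -0.0306 to 0.12 and Slc40a1 -0.11 to 0.085; in endothelial mimic against exosomes Mt1 -0.67 to 0.27, Mt2 -1.30 to 0.12 and Tfrc -0.11 to 0.44; for endothelial exosomes Slc11a2 -0.51 to 0.0584 and Tfrc -0.30 to 0.24; for the endothelial mimic Tfrc -0.0568 to 0.34; between cell types Tfrc -0.0332 to 0.22; in the exosome interaction Mt2 -1.59 to 0.12, Slc11a2 -0.37 to 0.22 and Slc40a1 -0.15 to 0.41; and in the mimic interaction Mt1 -1.07 to 0.28 and Mt2 -0.69 to 1.03. The cause was not tested.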

Other observations

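Mt3, a metallothionein known from neurons and kept on the list of other metal genes, is described further here because of its values. It had 3, 3 and 3 reads in the endothelial scrambled-miRNA libraries, 27, 25 and 50 with exosomes, and 70 and 149 with the mimic. In the tubular libraries it had 0 to 11 reads. In the authors' deposited table of endothelial cells, untreated over mimic, its log2 fold was -1.76 (adjusted p = 0.0216). Markers of the thick ascending limb summed to 3607 to 8263 TPM in those scrambled-miRNA libraries and to 12471 and 13842 TPM with the mimic, and their part was not tested.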
